A study of Mus musculus with 6 samples.

Results

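The genes examined here encode the ligands, receptors, secreted antagonists and feedback factors of the Wnt pathway, and their RNA levels were compared between control and *Rbfox2* mutant craniofacial tissue. Members were taken by a rule on gene names, and that rule was set with earlier results of these data known. They were all *Wnt*, *Fzd*, *Sfrp1* to *Sfrp5*, *Dkk1* to *Dkk4*, *Rspo1* to *Rspo4* and *Lgr4* to *Lgr6* genes, together with *Lrp5*, *Lrp6*, *Ror1*, *Ror2*, *Ryk*, *Wif1*, *Axin2*, *Lef1*, *Tcf7*, *Porcn* and *Wls*. This gave 55 of the 38553 genes in the deposited table, of which 19 encode Wnt ligands, 10 Frizzled receptors, 5 co-receptors or receptors of the Ror and Ryk kind, 9 secreted antagonists, 7 R-spondins or Lgr receptors, 2 ligand-processing proteins and 3 transcription or feedback factors.

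Poly(A)+ RNA of craniofacial tissue dissected from mouse embryos at stage E12.5 was sequenced. The 3 controls had the genotype *Rbfox2* flox/flox, and the 3 mutants had the genotype *Pax3* Cre/+ with *Rbfox2* flox/flox, so every embryo carried floxed alleles and only the mutants carried Cre. Cre was knocked in at *Pax3*, which is active in the dorsal neural tube, the neural crest and the somites, so tissue outside these lineages keeps *Rbfox2*, and the mutants also have 1 *Pax3* allele replaced by Cre. The labels call the samples of each group independent biological replicates and do not say whether tissue was pooled. Values are FPKM, the fragments assigned to a gene scaled by its length and by all mapped fragments, and the read depth behind a single value is unknown.

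Wnt ligands are lipid-modified secreted proteins that bind Frizzled receptors. With the co-receptors Lrp5 and Lrp6 they stabilise β-catenin, which acts with Tcf and Lef factors on target genes such as *Axin2*. With Ror and Ryk receptors they act on cell polarity and movement. Sfrp proteins and Wif1 bind the ligands, Dkk1 blocks Lrp5 and Lrp6, and R-spondins acting through Lgr receptors keep Frizzled proteins at the cell surface. In the embryonic face the pathway is known for roles in neural crest formation, outgrowth of the facial prominences and closure of the lip and palate.

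*Rbfox2*, the deleted gene, had FPKM of 58.4, 65.0 and 61.3 in control replicates 1, 2 and 3 and of 38.1, 36.3 and 34.3 in the mutant replicates, so the mutant mean was 58.8% of the control mean. *Pax3* had FPKM of 8.83, 11.9 and 11.1 in the controls against 8.62, 7.59 and 8.36 in the mutants, a mean 77.1% of the control. For *Pax3*, the Cre allele and the loss of *Rbfox2* cannot be told apart. Both groups held craniofacial tissue by their markers, with summed FPKM of 9 cranial mesenchyme genes of 449 to 499 in controls and 408 to 499 in mutants. The summed FPKM of 8 neuronal genes was 749 to 789 in controls and 854 to 947 in mutants, without overlap. Of the 8, 3 were higher in mutants at an unadjusted p under 0.05 (limma), as were 71 of all 10061 genes tested. Summed epithelial markers (9 genes) were at 154 to 262 and 153 to 210, and skeletal muscle markers (7 genes) at 147 to 363 and 138 to 209. Both sums were lower in the mutant in each of the 3 replicate numbers. With the replicate number as a block, 2 of 9 epithelial and 5 of 5 muscle genes tested were lower (unadjusted p under 0.05, limma). The share of all genes tested that was lower in that fit was 3.7%. Of the 8 neuronal genes 5 were higher in it, and the share of all genes higher is not given here. Control replicate 1 and mutant replicate 1 lay far from the other 4 samples, at -19.1 and -17.0 against 7.55 to 11.01 on a first principal component with 54.7% of the variance. Y-linked genes were expressed only in mutant replicates 1 and 2, and in no control. Sex, as read from these genes, thus differed between the groups and cannot be fully told apart from genotype. In bulk tissue, fewer cells of a type and less RNA per cell cannot be told apart, and the part of these differences in the Wnt gene values was not tested.

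The 3 members whose mutant values all lay below the control values were *Wif1*, *Dkk1* and *Wnt6*. The sequence around the start of *Dkk1* and before the starts of *Wif1* and *Wnt6* is shown with the core of the motif bound by Tcf and Lef factors, CTTTGA on either strand (TCAAAG when read on the opposite strand), in capitals. In the window from 250 bases before to 50 bases after the start in RefSeq (GRCm38.p6), *Dkk1* held 2 matches, which begin 174 and 117 bases before the RefSeq start, and *Wif1*, *Wnt6* and *Axin2* held 0. Of 32851 mouse promoters of this length, 16.0% held the motif and 1.73% held it 2 or more times. RefSeq promoters were found for 37 of the 55 members, and 6 of their 44 promoters (13.6%) held it. For *Dkk1*, 30 bases around each match are given, on the minus strand at chr19:30549653-30549682 and chr19:30549596-30549625. The GENCODE start of *Dkk1*, at 30549665, is 169 bases upstream of the RefSeq start, so the first match spans it and the second lies inside the gene by that annotation. For *Wif1* (plus strand, chr10:121033754-121033959) and *Wnt6* (plus strand, chr1:74771642-74771891) the bases upstream of both the RefSeq and the GENCODE starts are given. The matches are letters in a window, and no binding was measured.
*Dkk1*, match on the opposite strand: gaggggagagtgTCAAAGtcctccctgctt
*Dkk1*, match on the gene's strand: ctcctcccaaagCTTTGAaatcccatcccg
*Wif1*: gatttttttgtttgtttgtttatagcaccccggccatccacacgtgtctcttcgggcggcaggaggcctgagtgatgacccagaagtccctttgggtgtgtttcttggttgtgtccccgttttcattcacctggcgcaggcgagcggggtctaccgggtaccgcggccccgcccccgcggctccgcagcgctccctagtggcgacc
*Wnt6*: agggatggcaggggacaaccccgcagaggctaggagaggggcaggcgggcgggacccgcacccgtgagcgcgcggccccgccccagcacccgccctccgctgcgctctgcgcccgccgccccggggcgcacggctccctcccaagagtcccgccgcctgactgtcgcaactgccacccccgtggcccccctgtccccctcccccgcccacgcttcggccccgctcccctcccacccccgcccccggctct

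The antagonists had the highest summed FPKM of the roles in every sample and included the members with the smallest p-values. *Sfrp2* and *Sfrp1*, secreted proteins that share the ligand-binding domain of Frizzled receptors, had mean FPKM of 104 and 69.9 over the 6 samples and made up 77.0% of the summed antagonist FPKM. The mean of *Sfrp2* was 2.58 times that of *Wnt5a*, the most abundant ligand. *Dkk2* (17.2), *Dkk3* (16.6), *Dkk1* (7.76) and *Wif1* (7.62) followed by mean FPKM. *Dkk4*, *Sfrp5* and *Sfrp4* had means below 1, with single values from 0.546 to 1.74.

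**Figure D1:**
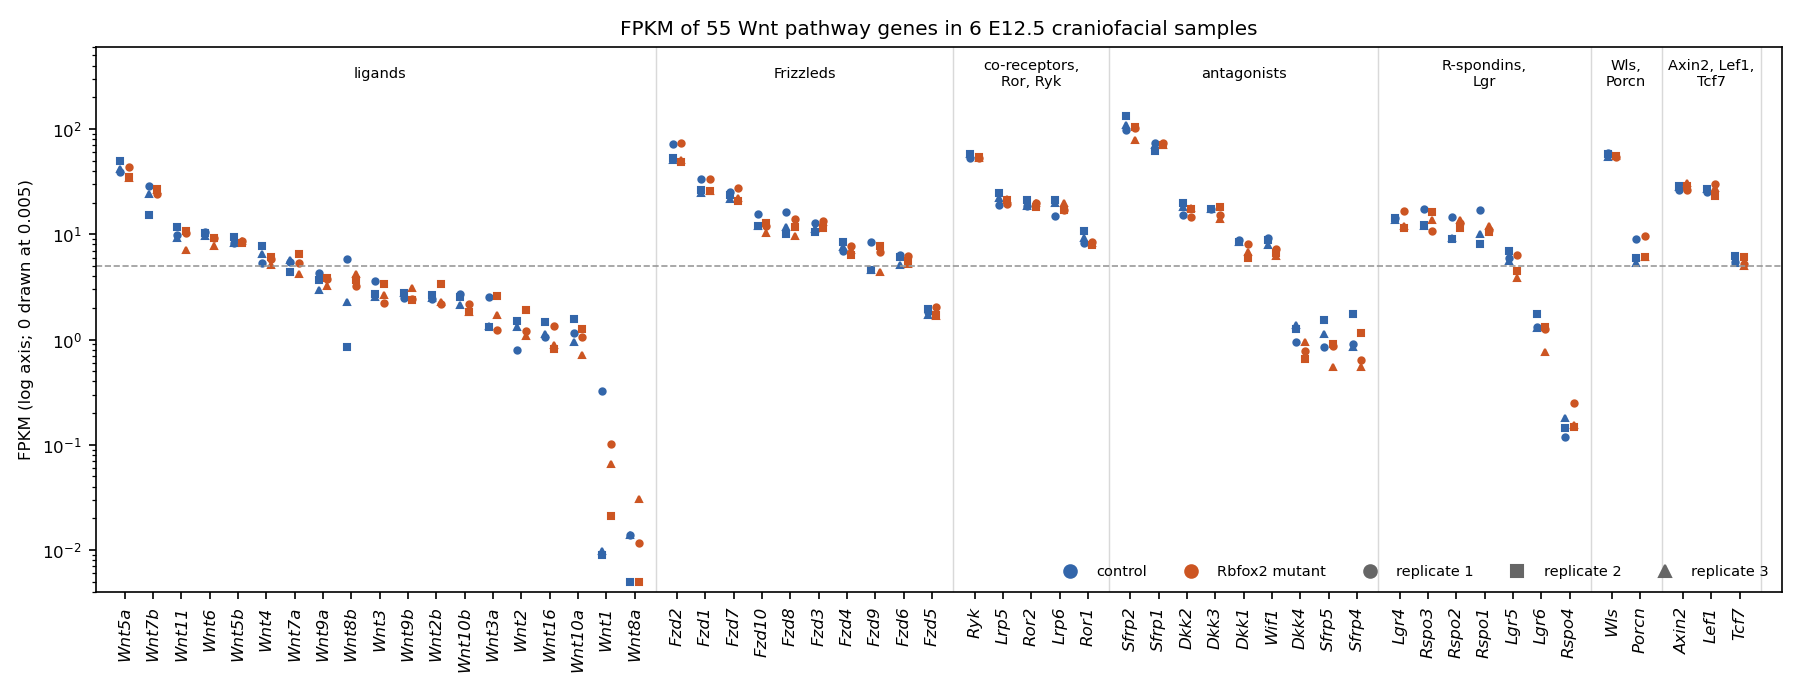
FPKM (log axis) of the 55 Wnt pathway genes in the 3 control (blue) and 3 *Rbfox2* mutant samples (orange), ordered by role and mean, with the symbol showing the replicate number and a dashed line at an FPKM of 5. Values of 0, in *Wnt8a*, are drawn at 0.005; *Sfrp2* reached 133, and the groups overlap in all tested genes but 3.

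*Wif1* (Wnt inhibitory factor 1, ENSMUSG00000020218), on chromosome 10 of GRCm38 from 121033960 to 121100650, had FPKM of 9.13, 8.73 and 7.82 in the controls against 7.25, 6.60 and 6.16 in the mutants. All mutants were below all controls, and the mean was 22.1% lower (8.56 ± 0.67 against 6.67 ± 0.55, SD, n = 3 each; two-sided exact permutation test p = 0.10, the lowest value that 3 samples against 3 allow). The log2 fold change, given throughout on log2(FPKM + 1), was -0.32 (standard error, SE, 0.094, unadjusted p = 0.0115, limma). Between samples of replicate number 1, 2 and 3 the difference on this scale was -0.30, -0.36 and -0.30. *Wif1* was thus lower in the mutant by nearly the same amount in each replicate number, the first replicates included.

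*Dkk1* (Dickkopf 1, ENSMUSG00000024868), on chromosome 19 from 30545863 to 30549665, had FPKM of 8.72, 8.48 and 8.48 in the controls against 8.02, 5.998 and 6.85 in the mutants. The controls lay close together and the mutants spread over a wider range below them, with mutant replicate 1 the nearest to the controls. The mean was 18.7% lower (8.56 ± 0.14 against 6.95 ± 1.02, SD, n = 3 each; exact permutation p = 0.10). The log2 fold change was -0.27 (SE 0.11, unadjusted p = 0.0368, limma). By replicate number the difference was -0.11, -0.44 and -0.27. The unadjusted p of *Dkk1* was above 0.05 when any 1 of the controls, or mutant replicate 2 or 3, was left out, while that of *Wif1* stayed below 0.05 with each sample left out in turn.

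*Sfrp2*, on chromosome 3 from 83766321 to 83774316, had FPKM of 98.6, 133 and 110.0 in the controls against 102, 104 and 78.8 in the mutants. The groups overlapped, since control replicate 1 lay below mutant replicates 1 and 2, and control replicate 2 was the highest sample. Its log2 fold change was -0.26 (SE 0.15, unadjusted p = 0.124, limma), and by replicate number the difference was 0.045, -0.36 and -0.48. *Sfrp1* had FPKM of 74.2, 62.3 and 69.7 in the controls against 73.3, 69.8 and 70.0 in the mutants (log2 fold change 0.05, SE 0.087). *Dkk3* and *Dkk2* had log2 fold changes of -0.14 and -0.09, each below 2 standard errors. Summed over the 9 genes grouped by name as antagonists, FPKM was 226, 255 and 235 in the controls against 223, 225 and 196 in the mutants. The mutant sums thus lay below the control sums, by little for the first replicates.

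**Figure D2:**
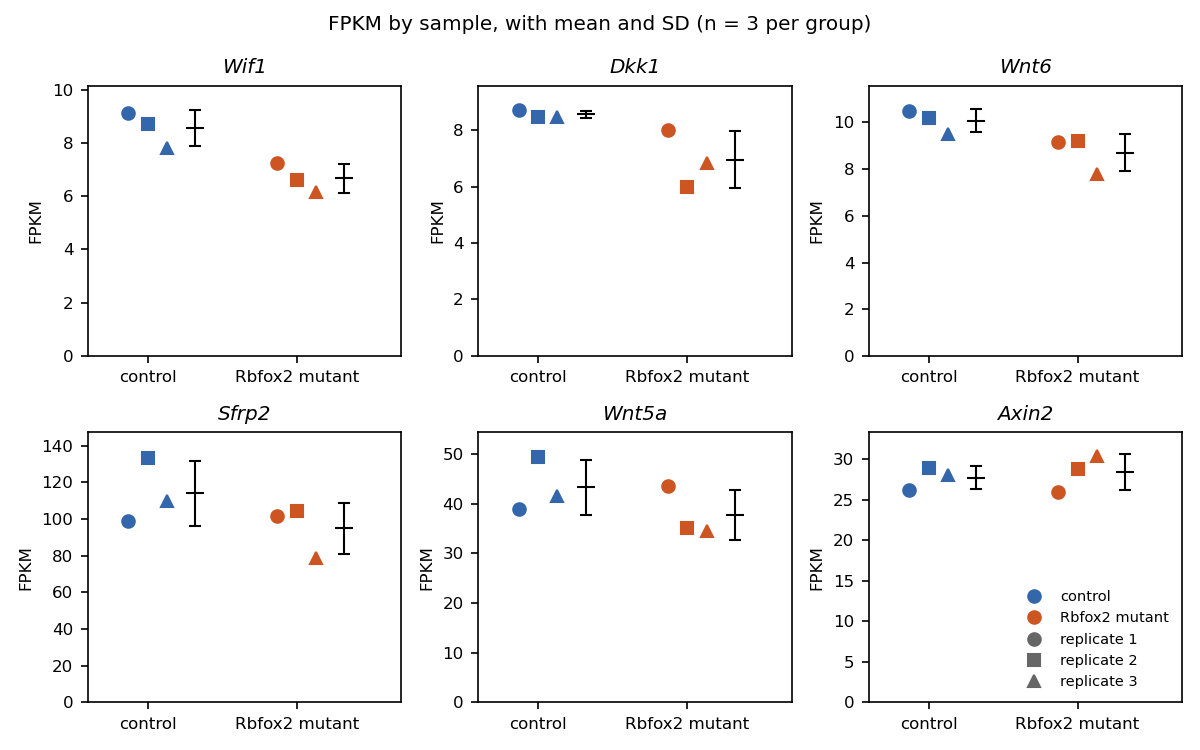
FPKM of *Wif1*, *Dkk1*, *Wnt6*, *Sfrp2*, *Wnt5a* and *Axin2* in each control and mutant sample (symbols show the replicate number), with the mean and SD of each group in black. In the top row every mutant value lies below every control value; in the bottom row the groups overlap, and control replicate 2 is the highest for *Sfrp2* (133) and *Wnt5a* (49.5).

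Among the ligands, *Wnt5a*, which acts mainly through Ror receptors on cell movement, and *Wnt7b* held 51.2% of the summed ligand FPKM, at 32.03% and 19.2%. *Wnt11* (mean FPKM 9.80), *Wnt6* (9.39), *Wnt5b* (8.57), *Wnt4* (6.09) and *Wnt7a* (5.25) came next. *Wnt9a* (3.62), *Wnt8b* (3.34), *Wnt3* (2.84), *Wnt9b* (2.65), *Wnt2b* (2.56), *Wnt10b* (2.20), *Wnt3a* (1.78), *Wnt2* (1.30), *Wnt16* (1.12) and *Wnt10a* (1.12) were at low levels. *Wnt3* and *Wnt9b*, both known for their part in closure of the lip, were thus far below *Wnt5a*. *Wnt1*, a marker of the dorsal neural tube, ranged from 0.00891 to 0.326, and *Wnt8a* from 0 to 0.0308.

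*Wnt6* (ENSMUSG00000033227), a ligand of surface ectoderm, on chromosome 1 from 74771892 to 74785322, had FPKM of 10.5, 10.2 and 9.52 in the controls against 9.15, 9.19 and 7.79 in the mutants. The groups did not overlap, although control replicate 3 and mutant replicate 2 lay close together. The mean was 13.5% lower (10.07 ± 0.50 against 8.71 ± 0.79, SD, n = 3 each; exact permutation p = 0.10), and the log2 fold change was -0.19 (SE 0.091, unadjusted p = 0.0724, limma). By replicate number the difference was -0.18, -0.14 and -0.26. A predicted gene, *Gm29539*, overlaps *Wnt6* on the other strand, and whether strand was used in counting is not given in the sources used here. The epithelial marker sum was 154, 262 and 223 in the controls against 153, 210.4 and 161 in the mutants, nearly equal in the first replicates and lower in the mutant in the others. Its part in the values of *Wnt6*, *Wif1* and *Dkk1* was not tested.

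*Wnt5a* had FPKM of 38.9, 49.5 and 41.6 in the controls against 43.5, 35.1 and 34.4 in the mutants. Mutant replicate 1 lay above 2 of the 3 controls, and the other mutants lay below all controls. The log2 fold change was -0.20 (SE 0.13, limma), with differences of 0.16, -0.48 and -0.27 by replicate number. The paper, by its own analysis, names *Wnt5a* among the genes with lower expression in the mutants. Here the estimate was negative, but the groups overlapped and it was below 2 standard errors. *Wnt4* (log2 fold change -0.17), *Wnt11* (-0.12) and *Wnt5b* (-0.03) were also lower in mutants by less than 2 standard errors. *Wnt5b* was among the steadiest members, with an SD over the 6 samples of 4.58% of its mean.

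*Wnt7b* had FPKM of 28.5, 15.3 and 23.9 in the controls against 24.0, 27.1 and 26.4 in the mutants. Control replicate 2 was far below the rest, and the other 5 samples lay between 23.9 and 28.5. The log2 fold change was 0.23 (SE 0.20), and without control replicate 2 it was -0.02. *Wnt8b*, a ligand of the forebrain midline whose values are given because they were seen to vary most among members above an FPKM of 1 (SD 50.8% of the mean), had FPKM of 5.81, 0.841 and 2.27 in the controls against 3.21, 3.70 and 4.21 in the mutants. The summed FPKM of 7 forebrain progenitor markers was 291, 119.9 and 185 in the controls against 209, 240.5 and 222 in the mutants. The 6 samples stood in the same order for *Wnt7b* as for this sum, and for *Wnt8b* the order differed only in that mutant replicates 2 and 3 changed places. Of the single markers, *Neurog2* and *Fezf2* had the order of the sum and *Lhx2* that of *Wnt8b*. The others did not, as *Emx2* was highest in mutant replicate 3 (31.1) and *Pax6* in mutant replicate 2 (35.8), and *Sox2* and *Hes5* had other orders. *Wnt5a* did not have the order of the sum, being highest in control replicate 2. The part of the forebrain tissue in these values was not tested.

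**Figure D3:**
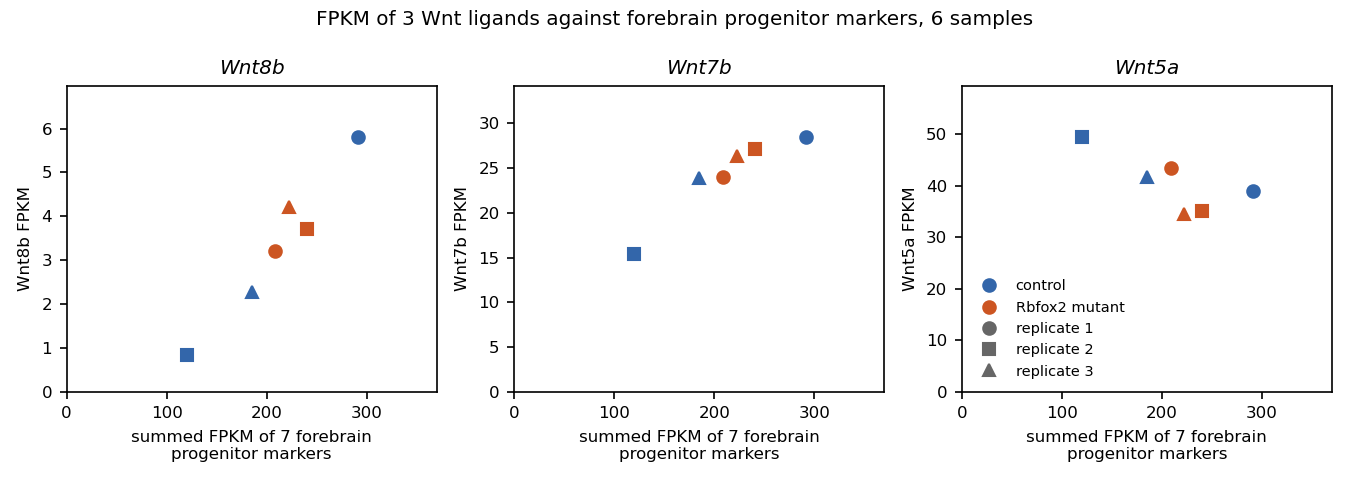
FPKM of *Wnt8b*, *Wnt7b* and *Wnt5a* against the summed FPKM of 7 forebrain progenitor markers (*Emx2*, *Lhx2*, *Pax6*, *Sox2*, *Hes5*, *Neurog2*, *Fezf2*), 1 point per sample, controls in blue and mutants in orange. *Wnt8b* and *Wnt7b* are lowest in control replicate 2, the sample with the lowest marker sum (119.9), while *Wnt5a* is highest there.

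The Frizzled receptors had 9 of 10 members above a mean FPKM of 5. They were *Fzd2* (58.1), *Fzd1* (28.3), *Fzd7* (23.5), *Fzd10* (12.4), *Fzd8* (12.2), *Fzd3* (12.1), *Fzd4* (7.33), *Fzd9* (6.08) and *Fzd6* (5.74), with *Fzd5* at 1.82. *Fzd2* had FPKM of 71.6, 52.7 and 50.2 in the controls against 74.0, 48.9 and 51.0 in the mutants, and *Fzd1* had 33.2, 26.5 and 24.7 in the controls against 33.3, 26.0 and 25.8 in the mutants. In both genes the first replicates of both groups were above the other samples, and control and mutant of the same number were nearly equal. The log2 fold changes were -0.01 (SE 0.19) and 0.01 (SE 0.14). Of the 8 Frizzled genes tested, 5 (*Fzd1*, *Fzd2*, *Fzd6*, *Fzd7* and *Fzd8*) had both first replicates above all other samples, where 18.4% of all genes tested did. Their first-replicate means were 1.154 to 1.44 times the means of the other samples. *Fzd3*, a receptor in planar cell polarity, was higher in the mutant in each replicate number, by 0.057, 0.13 and 0.22, with a log2 fold change of 0.14 (SE 0.10, limma).

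The co-receptors and the Ror and Ryk receptors all passed the filter, and the SD of their controls was at a median of 12.4% of the mean, against 9.07% over all genes tested. *Ryk*, an atypical receptor kinase for Wnt ligands, had FPKM of 53.0, 57.4 and 58.1 in the controls against 52.5, 54.3 and 53.2 in the mutants (log2 fold change -0.07, SE 0.072). *Lrp5* had 19.1, 24.6 and 22.1 in the controls against 19.4, 21.0 and 21.4 in the mutants (log2 fold change -0.08, SE 0.10). In both, the lowest values were those of the first replicates. *Ror2* (mean FPKM 19.3), *Lrp6* (18.3) and *Ror1* (8.82) had log2 fold changes of -0.03, -0.04 and -0.17. All 5 estimates were negative and none reached 2 standard errors. *Ryk*, *Lrp5* and *Lrp6* had both first replicates below all other samples, as did 34.7% of all genes tested, which is the opposite of the pattern in the Frizzled genes.

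The R-spondins differed in direction between replicate numbers, as did most genes tested. Of all genes tested, 13.1% were lower in the mutant in all 3 replicate numbers and 13.6% were higher in all 3. The share of all genes with the first replicates opposed to both others is not given here. *Rspo3* had FPKM of 17.3, 12.2 and 11.9 in the controls against 10.6, 16.1 and 13.5 in the mutants, so that the mutant was lower in the first replicates and higher in the others. *Rspo1* and *Rspo2* are given in full for the same pattern, after their values were seen. *Rspo1* stood at 16.8, 8.07 and 10.02 in the controls against 10.9, 10.4 and 12.1 in the mutants. *Rspo2* stood at 14.7, 8.93 and 9.17 in the controls against 12.7, 11.3 and 13.6 in the mutants, and again only the first replicates had the lower value in the mutant. By replicate number the difference was -0.65, 0.38 and 0.17 for *Rspo3*, -0.59, 0.33 and 0.24 for *Rspo1*, and -0.19, 0.31 and 0.52 for *Rspo2*. Control replicate 1 had the highest value of all samples in each of the 3 genes. Over all samples their log2 fold changes were -0.04, -0.00 and 0.21, each within 2 standard errors of 0.

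Of the R-spondin receptors, *Lgr4* and *Lgr5* ran the other way. *Lgr4* had FPKM of 14.4, 14.2 and 13.6 in the controls against 16.6, 11.4 and 11.9 in the mutants, and *Lgr5*, itself known as a Wnt target and given in full after its values were seen, had 5.93, 6.95 and 5.62 in the controls against 6.29, 4.50 and 3.86 in the mutants. In both, mutant replicate 1 was above its control and mutant replicates 2 and 3 were the lowest samples. Their log2 fold changes were -0.09 (SE 0.14) and -0.30 (SE 0.16). *Lgr5* passed the filter only through the controls, as mutant replicates 2 and 3 were below an FPKM of 5. *Lgr6* had a mean FPKM of 1.28 and did not have this pattern, with differences of -0.034, -0.25 and -0.37 by replicate number. *Rspo4* ranged from 0.119 to 0.248.

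*Wls*, which carries Wnt ligands to the cell surface, was the steadiest member, with FPKM of 58.8, 57.8 and 54.2 in the controls against 53.6, 55.8 and 55.4 in the mutants and an SD of 3.64% of its mean. *Porcn*, the enzyme that adds the lipid to Wnt ligands, had FPKM of 9.10, 5.93 and 5.28 in the controls against 9.58, 6.10 and 6.04 in the mutants. Its first replicates were 1.60 times the other samples on average, and the mutant was above the control in each replicate number by 0.034 to 0.16. The log2 fold changes were -0.05 for *Wls* and 0.09 for *Porcn*, below 1 standard error each.

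*Axin2*, *Lef1* and *Tcf7*, on the β-catenin side of the pathway, did not differ beyond their spread. *Axin2*, a negative regulator of the pathway that Wnt signalling induces, had FPKM of 26.2, 29.0 and 28.0 in the controls against 26.0, 28.9 and 30.4 in the mutants (log2 fold change 0.03, SE 0.086). Its differences by replicate number were -0.0084, -0.0049 and 0.11, and its interval of 2 standard errors holds 0. *Lef1* had FPKM of 25.3, 26.7 and 26.7 in the controls against 29.9, 23.1 and 27.5 in the mutants, with mutant values on both sides of the controls, and a log2 fold change of 0.03 (SE 0.10). *Tcf7* had a mean FPKM of 5.58 and a log2 fold change of -0.06. An adjusted p of 1.0 for each does not show that the groups were equal.

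**Figure D4:**
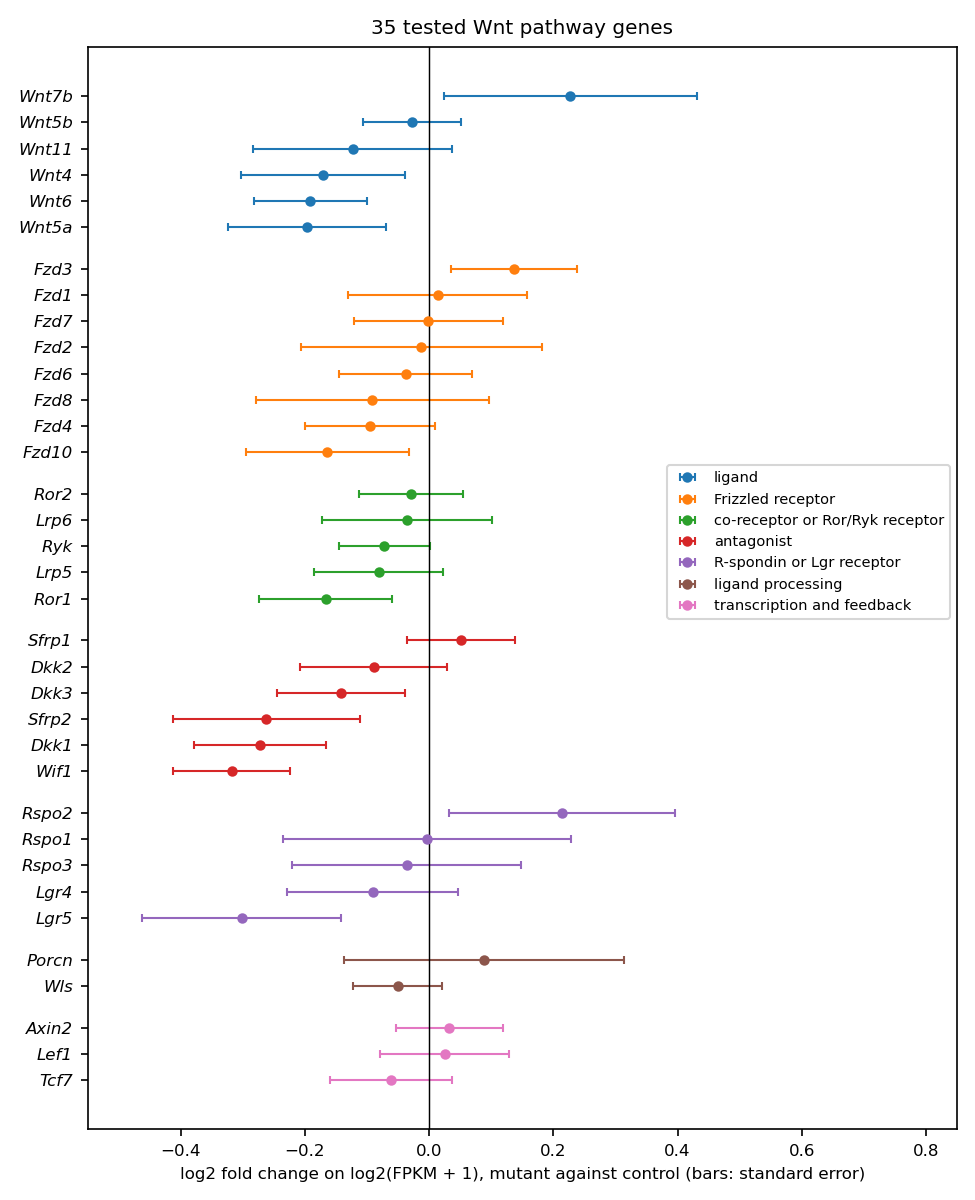
Log2 fold change (mutant against control, on log2(FPKM + 1)) with its standard error for the 35 tested members, grouped by role. Points left of 0 are lower in mutants, and 27 of the 35 lie there. *Wif1* (-0.32), *Lgr5* (-0.30, which passed the filter only through the controls) and *Dkk1* (-0.27) lie farthest left. *Wnt7b* (0.23) and *Rspo2* (0.21) lie farthest on the other side.

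Of the 55 members, 35 exceeded an FPKM of 5 in every sample of at least 1 group and were tested. No member had an adjusted p under 0.05 in limma (the adjusted p of each was 1.0), nor did any of the 10061 genes tested (0%), of which 167 had an unadjusted p under 0.05. At that unadjusted threshold 2 of the 35 members (5.71%), *Wif1* and *Dkk1*, were lower in mutants, against 0.954% of all genes tested, and 0 were higher. The groups did not overlap, with mutants lower, in 3 members (8.57%), against 2.37% of all genes tested, and in 0 members with mutants higher. The log2 fold change was below 0 in 27 of 35 members (77.1%), against 47.2% of all genes tested, and its median was -0.06 against 0.01. The shares lay closer together with some samples left out, at 62.9% against 56.0% without control replicate 1 and 62.2% against 56.1% without mutant replicate 3. They were 62.9% against 52.0% without mutant replicate 2 and 72.2% against 44.7% without control replicate 2. With the other samples left out they lay farther apart, at 80% against 43.4% without control replicate 3 and 77.1% against 40.6% without mutant replicate 1. These counts cover only members that passed the filter, which *Lgr5* did only through the controls. Genes measured in the same samples are not independent of each other.

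By replicate number, the mutant was lower than the control in 17 of the 35 members for replicate 1, in 25 for replicate 2 and in 18 for replicate 3, where 54.6%, 48.4% and 44.3% of all genes tested were. It was lower in all 3 in 6 members (17.1%), *Wif1*, *Dkk1*, *Dkk2*, *Wnt6*, *Ryk* and *Tcf7*, against 13.1% of all genes tested, a share near that of the members. It was higher in all 3 in *Fzd3* and *Porcn* (5.71%), against 13.6%. With the replicate number as a block, 4 members had an unadjusted p under 0.05, all lower in mutants (*Dkk1*, *Sfrp2*, *Wif1* and *Wnt6*), against 3.7% of all genes tested.

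In replicates 2 and 3 alone, with 2 samples per group, 8 of the 35 members were lower at an unadjusted p under 0.05 in limma, against 5.74% of all genes tested, and 3 were higher, against 5.27%. Those lower were *Lgr5* (log2 fold change -0.49), *Sfrp2* (-0.42), *Wnt5a* (-0.37), *Dkk1* (-0.36), *Wif1* (-0.33), *Wnt4* (-0.31), *Ror1* (-0.27) and *Lgr4* (-0.23). Of these, *Lgr5* passed the filter only through the controls, as its values in both mutants were below an FPKM of 5. Those higher were *Wnt7b* (0.46), *Rspo2* (0.42) and *Rspo3* (0.27). None of them had an adjusted p under 0.05, the smallest being 0.375. Of these 11 members, *Wif1* and *Dkk1* had a difference of the same sign between the first replicates, and the other 9 had the opposite sign there. The first replicates are 1 sample per group, so the difference within them was not tested.

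**Figure D5:**
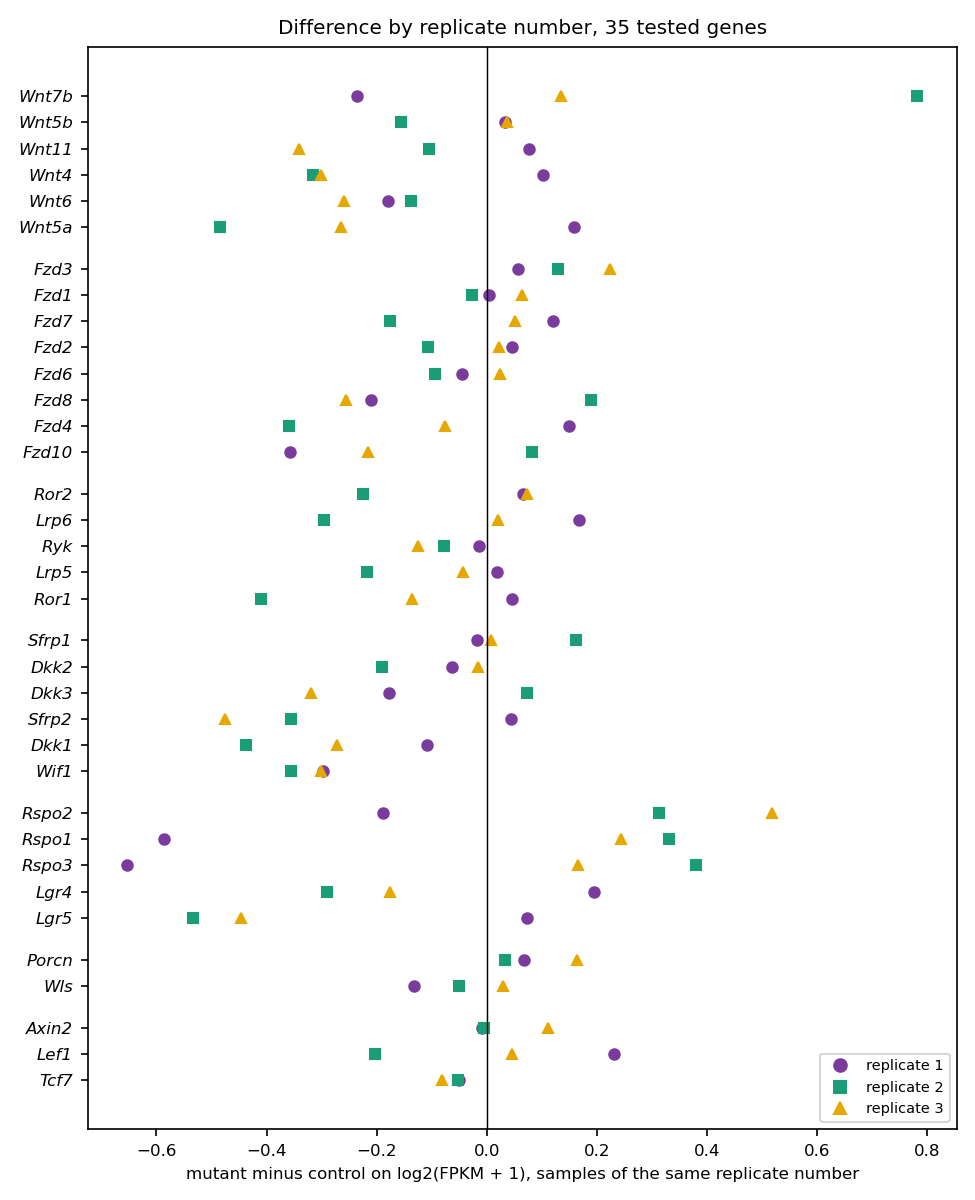
Difference between mutant and control on log2(FPKM + 1) for samples of replicate number 1 (purple circles), 2 (green squares) and 3 (yellow triangles), for the 35 tested members by role. The 3 symbols of *Wif1* lie together at -0.36 to -0.30, while in *Rspo1*, *Rspo2* and *Rspo3* the first replicate lies left of 0 and the others right of it.

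Other genes of the pathway were taken from lists by function, with 73 of 74 found and 56 tested. Of these, 0 had an adjusted p under 0.05 in limma, 2 were lower in mutants at an unadjusted p under 0.05 (3.57%, against 0.954% of all genes tested) and 0 were higher, and the log2 fold change was below 0 in 28 and above 0 in 28. The 2 were *Kremen2*, a membrane receptor for Dkk1, and *Gpc6*, a glypican of the cell surface. *Kremen2* had FPKM of 6.27, 8.05 and 6.88 in the controls against 6.05, 5.43 and 5.21 in the mutants (log2 fold change -0.29, SE 0.11, unadjusted p = 0.0288, limma). *Gpc6* had 19.4, 25.3 and 21.9 in the controls against 19.1, 17.6 and 18.0 in the mutants (log2 fold change -0.27, SE 0.11, unadjusted p = 0.0393, limma). In both genes all mutants were below all controls, with the first replicates closest. Among the 56, the groups did not overlap in 5 genes with mutants lower and in 1 with mutants higher, where 5% of all genes tested did not overlap in either direction. Both belong to the list of other extracellular and membrane modulators, in which 10 of 11 tested genes had a log2 fold change below 0, against 47.2% of all genes tested.

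Of 29 tested genes of intracellular signalling, 9 had a log2 fold change below 0 and 20 above, with a median of 0.02. The smallest p in this list was that of *Apc2*, a homologue of Apc with high expression in neurons, which had FPKM of 34.7, 29.3 and 36.0 in the controls against 36.5, 42.1 and 39.8 in the mutants (log2 fold change 0.24, SE 0.10, limma). All mutants lay above all controls, as they did for the summed neuronal markers. In 2 other genes of this list all mutants lay below all controls. Of 10 planar cell polarity genes 5 were on each side, led by the cadherin gene *Celsr2* (log2 fold change 0.26, SE 0.17), and of 6 target genes 4 were below 0, led by *Nkd2*, an inhibitor of Dishevelled (log2 fold change -0.20, SE 0.11).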

How the data were processed

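RNA-Seq was performed on 3 control and 3 *Rbfox2* mutant samples from stranded poly(A)+ libraries. STAR was used by the authors for alignment to GRCm38, and the deposited values are FPKM of whole genes. The submitters' notes name FastQC 0.11.4, STAR and Cuffdiff, and the annotation and the step that made the gene table are not given in the sources used here. Read counts could not be recovered, so no count test was run and counting error is unknown. Samples were grouped by genotype from the labels.

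Genes with an FPKM over 5 in all samples of one group were tested on log2(FPKM + 1) with limma 3.58.1 (R 4.3.3, intensity trend, no covariates, Benjamini-Hochberg adjustment over 10061 genes). The method was first tested on simulated data with independent noise of the same size in all genes and no first-replicate effect. That test does not show how the method performs on data with such an effect. An exact permutation test was added for single genes. Of the alternatives, 15 were fitted. Deviations of same-numbered samples from their group means correlated at 0.64, 0.26 and 0.51 across genes, so the replicate number was also used as a block. This pairing comes from the values and not from the labels, and mainly from the first replicates, since control replicate 3 correlated with mutant replicate 2 at 0.40 and control replicate 2 with mutant replicate 3 at 0.23. Coordinates are from GENCODE vM21, in which all 55 members were found and 20 overlap another gene. The members and lists were chosen with earlier results of these data known. Members with a mean FPKM over 1 are named, with all values for the 2 most abundant of each role, for those whose groups did not overlap or whose unadjusted p was under 0.05, and for *Wnt5a*, *Axin2* and *Lef1*. From the other lists, genes with an unadjusted p under 0.05 or the smallest p are named. One listed marker gene is not reported here.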

Additional observations from a re-analysis of the deposited data

How the results depend on the processing

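*Wif1* had an unadjusted p under 0.05 and a negative log2 fold change in each of the 15 alternatives. *Dkk1* stayed negative in all of them and was above that threshold with median-ratio scaling, with the Y-linked covariate and without control replicate 1, 2 or 3 or mutant replicate 2 or 3. The 2 members under the threshold became 1 with median-ratio scaling and 5 with the Y-linked covariate. They became 4 with the replicate block, all lower, where 3.7% of all genes were lower against 0.954% in the main fit. In replicates 2 and 3 only they became 11, with 8 lower and 3 higher, where 5.74% and 5.27% of all genes were. With a sample left out they became 1 to 5. They were 1 without control replicate 2 or 3 or mutant replicate 3, 4 without control replicate 1 and 5 without mutant replicate 1. The share of all genes is not given here for median-ratio scaling, the Y-linked covariate or the fits with a sample left out. The 3 members whose groups do not overlap became 20 of 35 in replicates 2 and 3 only, where 45.2% of all genes tested did not overlap, and 3 to 15 with a sample left out (15 without control replicate 1, against 24.8% of all genes; 7 without mutant replicate 2, against 9.54%; 6 without mutant replicate 1, against 24.3%). The median log2 fold change was -0.11 with the Y-linked covariate and -0.10 to -0.037 with a sample left out. At the unadjusted threshold the replicate block added *Sfrp2* and *Wnt6* among the members and *Apc2* and *Tle2* among the other pathway genes, besides marker genes. At the adjusted threshold it changed no call. The count of all genes past an adjusted p of 0.05 in limma, 0 over all samples, was 3 with a first-replicate term, 4 in replicates 2 and 3 only and 0 to 5 with a sample left out (5 without mutant replicate 3), and none of these was a member. *Rbfox2* passed with the first-replicate term (-0.75, adjusted p = 0.0296) and in replicates 2 and 3 only (-0.82, adjusted p = 0.0407), and ranged from -0.79 to -0.71 with a sample left out.

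Among single genes, 234 of 255 estimates kept their sign and 21 changed sign. None of the 255 passed the adjusted threshold in limma. Some of those that kept their sign crossed the unadjusted threshold, *Dkk1* among them. With the Y-linked covariate, *Fzd1* was at -0.11 and *Porcn*, an X-linked gene, at -0.12. In replicates 2 and 3 only, *Lef1* was at -0.078 and *Rspo3* at 0.27. With a sample left out the ranges that include a change of sign were -0.015 to 0.093 for *Axin2*, -0.10 to 0.14 for *Fzd1*, -0.20 to 0.14 for *Fzd2*, -0.054 to 0.13 for *Lef1*, -0.25 to 0.0030 for *Lgr4*, -0.17 to 0.0012 for *Lrp5*, -0.11 to 0.29 for *Porcn*, -0.17 to 0.13 for *Rspo3*, -0.017 to 0.11 for *Sfrp1* and -0.016 to 0.41 for *Wnt7b*. The cause of these changes was not tested. No scaling moved the median of all genes by over 0.1 on the log2 scale.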
